A study of Mus musculus with 12 samples.

Results

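The 10 glutathione S-transferase genes described here were *Gsta3*, *Gsta4*, *Gstm1*, *Gstm3*, *Gstp1*, *Gstt1*, *Gsto1*, *Mgst1*, *Mgst2* and *Mgst3*. They were chosen by name as members of a gene family, with earlier results of these data known. Their probes were found by accession or gene name. The 10 genes were measured by 14 of the 41174 probes of the array and make up 10 of its 32301 genes or transcripts. RNA came from bone marrow-derived macrophages (BMDMs), macrophages grown from the marrow of C57BL/6 mice (C57BL6/J in the methods) aged 8 weeks for 7 days with M-CSF, the growth factor of this lineage. WT cells were compared with KpCKO cells, which carry the genotype Keap1 flox/flox::LysM-Cre, so that *Keap1* is deleted where the *lysozyme M* locus drives Cre, in the myeloid lineage. The labels do not say whether the WT mice carried a floxed allele or Cre. Cells of each genotype were left untreated (Con), given LPS and IFNγ for 6 h (M1), or given IL-4 for 6 h (M2). There were 2 cultures, the first of a male WT and a male KpCKO mouse and the second of a female of each genotype, so that culture and sex cannot be told apart. With 3 stimuli and 2 genotypes this makes 6 groups, each with 2 arrays from 2 mice. The same 2 mice of a genotype gave the cells for all 3 stimuli, so the stimuli add no mice.

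Glutathione S-transferases join the tripeptide glutathione to reactive compounds, such as quinones, epoxides and the aldehydes of lipid peroxidation, so that the conjugate can be pumped out of the cell. The soluble enzymes fall into classes named by Greek letters, of which alpha (*Gsta*), mu (*Gstm*), pi (*Gstp*), theta (*Gstt*) and omega (*Gsto*) are represented here, while the microsomal enzymes (*Mgst*) belong to an unrelated family of membrane proteins. Many of the soluble enzymes are known targets of Nrf2, the transcription factor that Keap1 marks for degradation and that binds the antioxidant responsive element (ARE). In macrophages, enzymes of the microsomal family are also known for their part in making leukotrienes and prostaglandins.

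The ARE core was searched in the promoters of the members as TGACNNNGC and as TGAGNNNGC, on both strands, from 250 bases before to 50 bases after the start of the gene in RefSeq (GRCm38.p6). RefSeq promoters were held for 9 of the 10 members, 11 promoters in all, and *Gsta4* had no entry. A match was found in 4 of the 11, those of *Gsta3*, *Gstp1*, *Gstt1* and *Mgst1*. Of 32851 promoters of all genes, 12.4% held TGACNNNGC, 17.6% held TGAGNNNGC and 27.8% held either of them. The matched stretches are shown because the difference between KpCKO and WT varies widely among these genes below. Each is given on the strand of its gene, with the 9 bases of the match in capitals and 10 bases on either side. In the second *Gstp1* stretch and in the *Mgst1* stretch, the motif reads on the opposite strand.
Gsta3 (chr1:21240454-21240482, plus strand, match 121 to 113 bases before the start): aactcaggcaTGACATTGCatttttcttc
Mgst1 (chr6:138140461-138140489, plus strand, match 56 to 48 bases before the start): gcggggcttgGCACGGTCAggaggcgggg
Gstp1 (chr19:4037968-4037996, minus strand, match 74 to 66 bases before the start): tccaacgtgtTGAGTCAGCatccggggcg
Gstp1 (chr19:4037903-4037931, minus strand, match 9 to 1 bases before the start): gcctacgcgtGCGTCCTCActctgagtac
Gstt1 (chr10:75797802-75797830, minus strand, match 89 to 81 bases before the start): tgctggccgcTGAGAGAGCcctgcgctct
*Gsta3* and *Mgst1* thus held TGACNNNGC, and *Gstp1* and *Gstt1* held TGAGNNNGC. No match was held by the promoters of *Gstm1*, *Gstm3*, *Gsto1*, *Mgst2* and *Mgst3*, which says only that these letters are not in this window. *Mgst1* has a further RefSeq promoter, which held no match.

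Levels are given as the log2 of the background-subtracted intensity less the 75th percentile of all probes of the array, so that 0 is the level of a fairly bright probe of that array, and values of different genes are not comparable. The WT M1 arrays had the lowest 75th percentiles, 757.1 and 547.7, against 786.6 to 1166 on the other 10 arrays. On each array 59.3% to 71.4% of probes rose clearly over background. Of the 14 probes of the members, 13 were well above background on 12 of 12 arrays, no probe was saturated, and all 10 genes passed the filter on dim probes. In total RNA of a whole culture, a change in the RNA of each cell and a change in the share of cells that hold it cannot be told apart. Of the macrophage markers with a probe, 7 of 7 were well above background in every group. Their summed log2 level was 8.93 to 10.02 in WT and 8.66 to 9.37 in KpCKO, lower in KpCKO in each stimulus and culture. The sum includes *Lyz2*, the *lysozyme M* gene whose locus drives Cre in KpCKO, at means of 7 in WT Con and 6.04 in KpCKO Con. The differences of the 7 markers ran from −1.19 to 0 in Con, −1.33 to 0.11 in M1 and −0.86 to 0.32 in M2. Their medians were −0.25, −0.50 and −0.16. In Con, M1 and M2, 1, 4 and 1 of them passed the test as lower, against 185 of 22367, 1919 of 22354 and 144 of 22365 genes. Stromal markers (collagens, *Cxcl12* and *Dcn*) were above background in 5 of 5, with summed levels of 5.00 to 5.38 in WT and 4.49 to 5.75 in KpCKO. Their single differences ran from −2.70 to 0.16 in Con, −2.74 to 0.18 in M1 and −2.72 to −0.08 in M2. The lowest was that of *Dcn* each time, and none passed the test. Neutrophil markers were at 2.89 to 4.05 in WT and 1.92 to 4.02 in KpCKO, with 1 of 9 never above background, and the B cell, T cell, mast cell and erythroid sums lay below 0 on every array where they could be formed. The part of other cells in the differences described here was not tested.

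*Keap1* itself was at 3.26 and 3.16 in WT Con (cultures 1 and 2) and at 1.79 and 1.71 in KpCKO Con. It was at 4.28 and 4.80 in WT M1 against 2.61 and 3.04 in KpCKO M1, and at 3.07 and 2.85 in WT M2 against 1.37 and 0.94 in KpCKO M2. KpCKO lay below WT in each stimulus, by 1.46 ± 0.24 to 1.81 ± 0.24 (log2, SE, limma adjusted p = 0.0336, 0.00769 and 0.0161 for Con, M1 and M2). Whether the probe lies in the deleted part of the gene was not tested. *Nqo1*, a quinone reductase widely used as a readout of Nrf2, was 9.38-fold, 11.3-fold and 11.5-fold higher in KpCKO in Con, M1 and M2 (limma adjusted p = 6.88e-05, 6.77e-05 and 7.17e-05).

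The effect of *Keap1* deletion was read from KpCKO against WT within each stimulus, whose 4 arrays shared 1 slide. In Con, 7 of the 10 members were higher in KpCKO by limma's test with a Benjamini-Hochberg adjusted p under 0.05 over all genes, against 1.39% of 22367 genes. In M1, 9 members were higher, against 7.43% of 22354 genes, and 1 was lower, against 8.58%. In M2, 6 members were higher, against 1.28% of 22365 genes. The median difference of the members was 1.21, 1.35 and 1.25 on the log2 scale in the order Con, M1, M2, and that of all genes was 0.002, −0.087 and 0.019. The 13 other glutathione transferases that could be tested had medians of 0.07, 0.14 and 0.06. Since the members were chosen with earlier results known, their counts do not stand for the whole family. Of the 10 members, 9 had both KpCKO arrays above both WT arrays in every stimulus, against 5.6% of the 22084 genes with a value on all arrays, and *Gstt1* was the exception. The 3 stimuli compare cells of the same mice, so they are not separate tests of the genotype. When each array of a comparison was left out in turn, *Gsta3*, *Gstm1*, *Gstm3* and *Mgst2* passed the test each time in all 3 stimuli. Without the culture as a block, 4, 7 and 4 members passed as higher in Con, M1 and M2, against 0.657%, 2.99% and 0.662% of all genes, and among those lost were *Mgst1* and *Mgst2* in Con and M2.

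**Figure D1:**
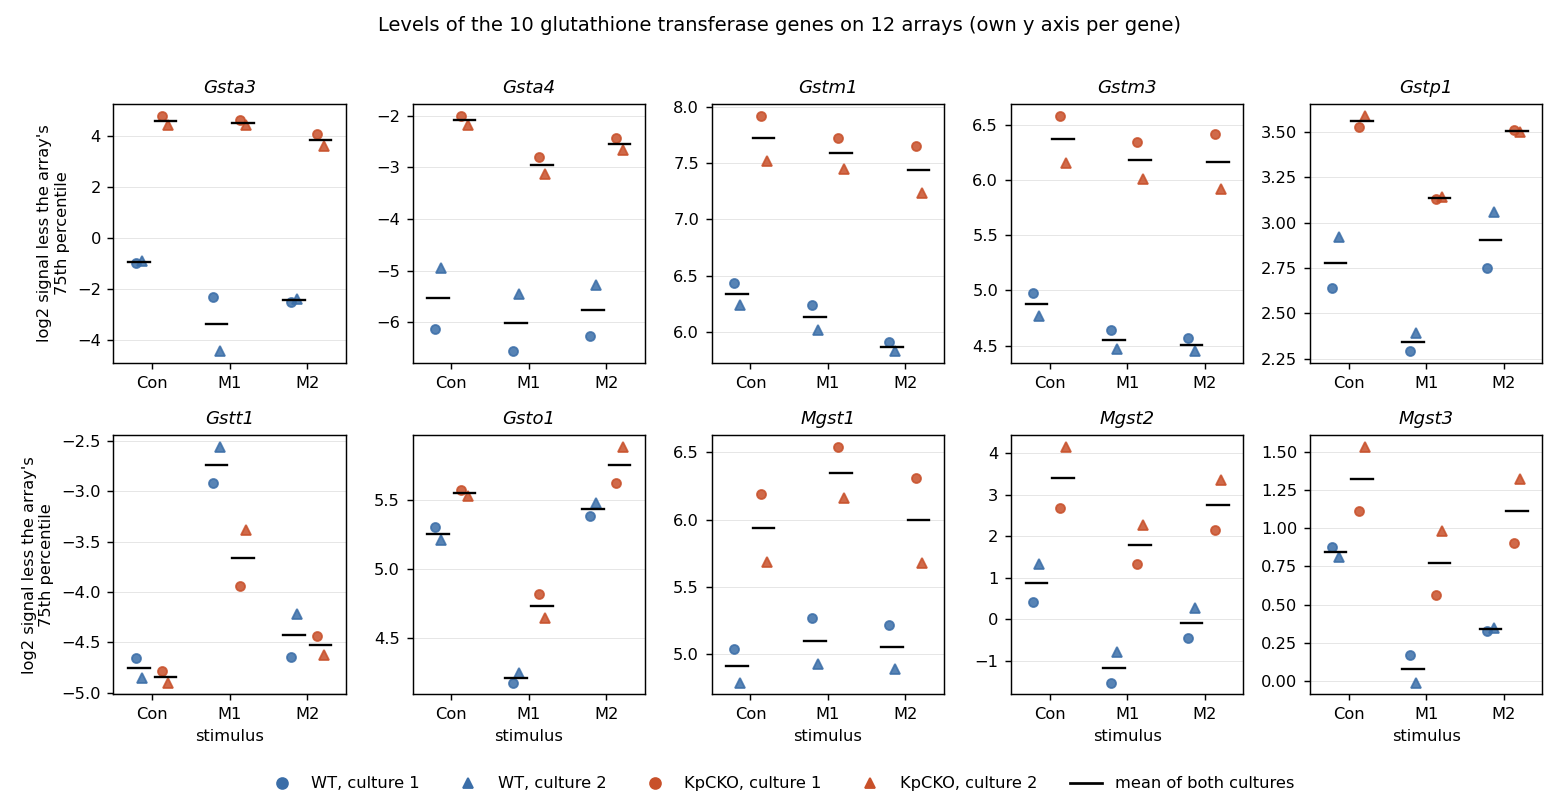
Level of each member on the 12 arrays, as log2 signal less the 75th percentile of the array (y axis, own scale for each gene), by stimulus (x axis), with WT in blue, KpCKO in orange, culture 1 as circles, culture 2 as triangles and the mean of both cultures as a black line. In 9 of the 10 genes, against 5.6% of all genes, the KpCKO points lie above the WT points in each stimulus, and in *Gstt1* they lie below in M1 and overlap in Con and M2.

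The alpha class showed the widest differences. *Gsta3*, known for conjugating reactive aldehydes and aflatoxin epoxide, was at −0.95 and −0.90 in WT Con and at 4.81 and 4.43 in KpCKO Con. In M1 it was at −2.30 and −4.43 in WT and at 4.64 and 4.43 in KpCKO, and in M2 at −2.48 and −2.39 in WT and at 4.10 and 3.64 in KpCKO. The genotypes were far apart, and the KpCKO arrays of all 3 stimuli stayed between 3.64 and 4.81 while the WT arrays ranged from −4.43 to −0.90. The difference was 5.54 ± 0.50 in Con (log2, SE; 46.7-fold, limma adjusted p = 0.00419), 7.90 ± 0.50 in M1 (239-fold, 0.000706) and 6.31 ± 0.50 in M2 (79.1-fold, 0.00289). Each SE in this text rests on 1 spread per gene, pooled over the 6 groups and over arrays of the same mice. For *Gsta3* the standard deviation was 1.5 in WT M1 and 0.039 to 0.33 in the other groups.

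The size of the M1 difference rested on the probe. The cultures of WT M1 lay far apart on the brighter *Gsta3* probe, which stood for the gene, but the dimmer probe of the same transcript read −3.29 and −3.39 there. On the dimmer probe WT was at −1.91 and −1.84 in Con and at −3.41 and −3.35 in M2, and KpCKO was at 3.97 and 3.59 in Con, 3.86 and 3.71 in M1, and 3.18 and 2.81 in M2. The 2 probes thus moved alike except in WT M1 culture 2. With the dimmer probe, chosen as an alternative after the values were seen, the difference was 5.65 in Con, 7.13 in M1 and 6.37 in M2 (limma adjusted p = 3.19e-05, 9.71e-06 and 2.11e-05).

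**Figure D2:**
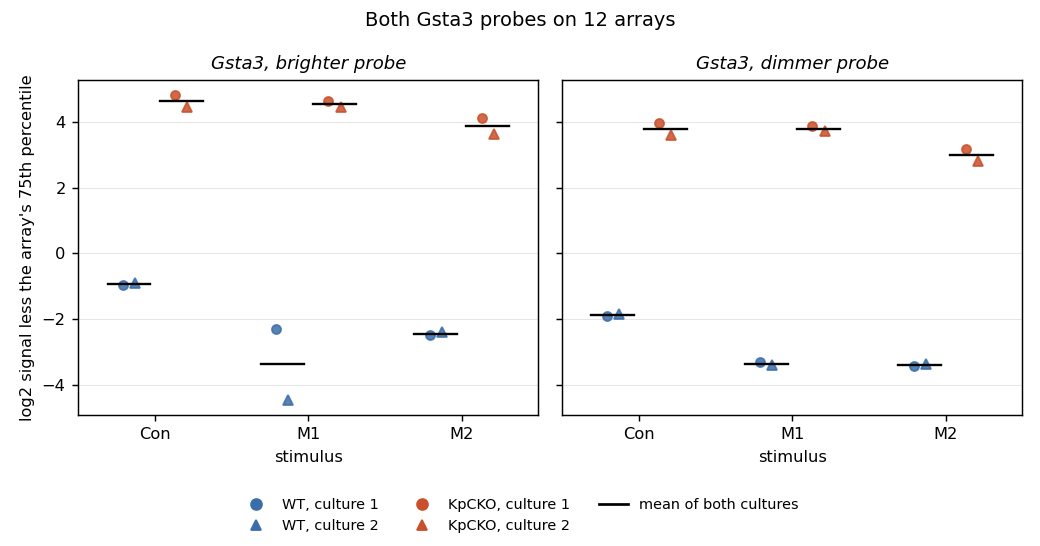
Both probes of *Gsta3* on the 12 arrays, as log2 signal less the 75th percentile of the array (y axis), by stimulus (x axis), with WT in blue, KpCKO in orange, culture 1 as circles, culture 2 as triangles and means as black lines. The WT M1 cultures are at −2.30 and −4.43 on the brighter probe and at −3.29 and −3.39 on the dimmer one.

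*Gsta4*, known for conjugating the lipid peroxidation product 4-hydroxynonenal, was at −6.13 and −4.94 in WT Con and at −2 and −2.18 in KpCKO Con. It was at −6.56 and −5.45 in WT M1 against −2.80 and −3.12 in KpCKO M1, and at −6.26 and −5.27 in WT M2 against −2.44 and −2.67 in KpCKO M2. The genotypes did not overlap, and the WT values were close to background. The difference was 3.44 ± 0.45 in Con (10.9-fold), 3.04 ± 0.45 in M1 (8.25-fold, with 1 WT array measured above background) and 3.21 ± 0.45 in M2 (9.25-fold), with limma adjusted p = 0.0147, 0.00927 and 0.0214. With a normexp background correction, which adds an offset to every probe, the differences were 1.85, 0.86 and 0.89 and did not pass the test (adjusted p = 0.148, 0.309 and 0.287). In Con and in M2, leaving out any of the 4 arrays also ended the call, as did leaving out KpCKO culture 1 in M1.

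Both mu members, *Gstm1* and *Gstm3*, were higher in KpCKO in each stimulus. *Gstm1*, a major mu enzyme that acts on quinones and epoxides, was at 6.44 and 6.24 in WT Con and at 7.92 and 7.52 in KpCKO Con. It was at 6.24 and 6.02 in WT M1 against 7.72 and 7.45 in KpCKO M1, and at 5.91 and 5.83 in WT M2 against 7.65 and 7.23 in KpCKO M2. The lowest KpCKO array of any stimulus lay above the highest WT array. The differences were 1.38 ± 0.11, 1.45 ± 0.11 and 1.57 ± 0.11 in Con, M1 and M2 (2.60-fold, 2.74-fold and 2.96-fold; limma adjusted p = 0.00294, 0.00109 and 0.00178). *Gstm3*, another mu enzyme, was at 4.98 and 4.77, 4.64 and 4.47, and 4.57 and 4.45 in WT Con, M1 and M2, and at 6.58 and 6.15, 6.34 and 6.01, and 6.41 and 5.92 in KpCKO. It was thus higher in KpCKO on every array, by 1.49 ± 0.12, 1.62 ± 0.12 and 1.66 ± 0.12 (2.80-fold, 3.08-fold and 3.15-fold; limma adjusted p = 0.00276, 0.000953 and 0.00179). The mu genes are close in sequence, and whether their probes bind each other's transcripts was not tested.

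*Gstp1*, the pi enzyme and a classical detoxification marker, was at 2.64 and 2.92 in WT Con and at 3.53 and 3.59 in KpCKO Con. It was at 2.29 and 2.39 in WT M1 against 3.13 and 3.14 in KpCKO M1, and at 2.75 and 3.06 in WT M2 against 3.51 and 3.50 in KpCKO M2. KpCKO was above WT in each stimulus without overlap. The differences were 0.79 ± 0.12 in Con (1.72-fold, limma adjusted p = 0.0241), 0.79 ± 0.12 in M1 (1.73-fold, 0.00898) and 0.60 ± 0.12 in M2 (1.52-fold), where the adjusted p of 0.0609 missed the threshold. On the dimmer *Gstp1* probe the M2 difference was 0.64 and passed (adjusted p = 0.0434). In Con, leaving out any of the 4 arrays ended the call, and in M1 leaving out KpCKO culture 1 did. The promoter of *Gstp1* held the TGAGTCAGC stretch shown above. Of all promoters, 27.8% held either form of the motif, and whether the stretch takes part in this difference was not tested.

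*Gstt1*, the theta enzyme, which acts on small halogenated compounds, did not move with the other members. It was at −4.65 and −4.85 in WT Con and at −4.78 and −4.90 in KpCKO Con, and at −4.64 and −4.22 in WT M2 against −4.44 and −4.62 in KpCKO M2. The genotypes overlapped in both. The differences were −0.09 (95% confidence interval −0.62 to 0.43) in Con and −0.10 (−0.63 to 0.42) in M2, with limma adjusted p = 0.944 and 0.907. In M1 it was at −2.92 and −2.56 in WT and at −3.94 and −3.38 in KpCKO. There KpCKO lay below WT in both cultures, by −0.92 ± 0.22 (1.89-fold lower, limma adjusted p = 0.0369). That call was lost in 8 of 13 alternatives, with differences of −1.17 to −0.67 over all of them. Among the 8 were normexp (−0.75, limma adjusted p = 0.231), no culture block, and leaving out either WT M1 array or KpCKO M1 culture 1.

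*Gsto1*, the omega enzyme, known as a thiol transferase and a reductase of arsenic compounds, was at 5.30 and 5.21 in WT Con and at 5.57 and 5.53 in KpCKO Con. It was at 4.18 and 4.25 in WT M1 against 4.82 and 4.65 in KpCKO M1, and at 5.38 and 5.48 in WT M2 against 5.62 and 5.88 in KpCKO M2. KpCKO lay above WT in each culture, by small amounts. The difference passed the test in M1 at 0.52 ± 0.12 (1.44-fold, limma adjusted p = 0.0344), and was 0.30 ± 0.12 in Con (0.344) and 0.31 ± 0.12 in M2 (0.313). The M1 call was lost without the culture as a block and on leaving out either WT M1 array or KpCKO M1 culture 1.

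The microsomal enzymes differed among themselves. *Mgst1*, known to protect membranes against lipid hydroperoxides, was at 5.04 and 4.79 in WT Con and at 6.19 and 5.69 in KpCKO Con. It was at 5.27 and 4.93 in WT M1 against 6.54 and 6.16 in KpCKO M1, and at 5.22 and 4.89 in WT M2 against 6.31 and 5.68 in KpCKO M2. KpCKO was higher without overlap, by 1.03 ± 0.12, 1.25 ± 0.12 and 0.94 ± 0.12 in Con, M1 and M2 (2.04-fold, 2.39-fold and 1.92-fold; limma adjusted p = 0.00879, 0.00186 and 0.0123). Leaving out any of the 4 Con arrays ended the Con call, and leaving out either WT M2 array or KpCKO M2 culture 1 ended the M2 call. Its dimmer probe gave 0.96, 1.02 and 0.76, each past the test.

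*Mgst2*, which can make leukotriene C4, was at 0.41 and 1.33 in WT Con and at 2.67 and 4.15 in KpCKO Con. It was at −1.53 and −0.80 in WT M1 against 1.33 and 2.27 in KpCKO M1, and at −0.46 and 0.26 in WT M2 against 2.14 and 3.35 in KpCKO M2. Culture 2 was above culture 1 in each of the 6 groups, and within each culture KpCKO was above WT. The differences were 2.54 ± 0.20, 2.97 ± 0.20 and 2.85 ± 0.20 in Con, M1 and M2 (5.81-fold, 7.81-fold and 7.19-fold; limma adjusted p = 0.0024, 0.000706 and 0.00157). *Mgst3*, which has glutathione peroxidase activity, was at 0.88 and 0.81, 0.17 and −0.01, and 0.33 and 0.35 in WT Con, M1 and M2, and at 1.11 and 1.53, 0.56 and 0.98, and 0.90 and 1.32 in KpCKO. KpCKO lay above WT in every pair, and the difference of 0.70 ± 0.19 in M1 (1.62-fold) was the only one past the test (limma adjusted p = 0.0486), with 0.47 ± 0.19 in Con (0.323) and 0.77 ± 0.19 in M2 (0.12). The M1 call was lost in 10 of 13 alternatives.

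**Figure D3:**
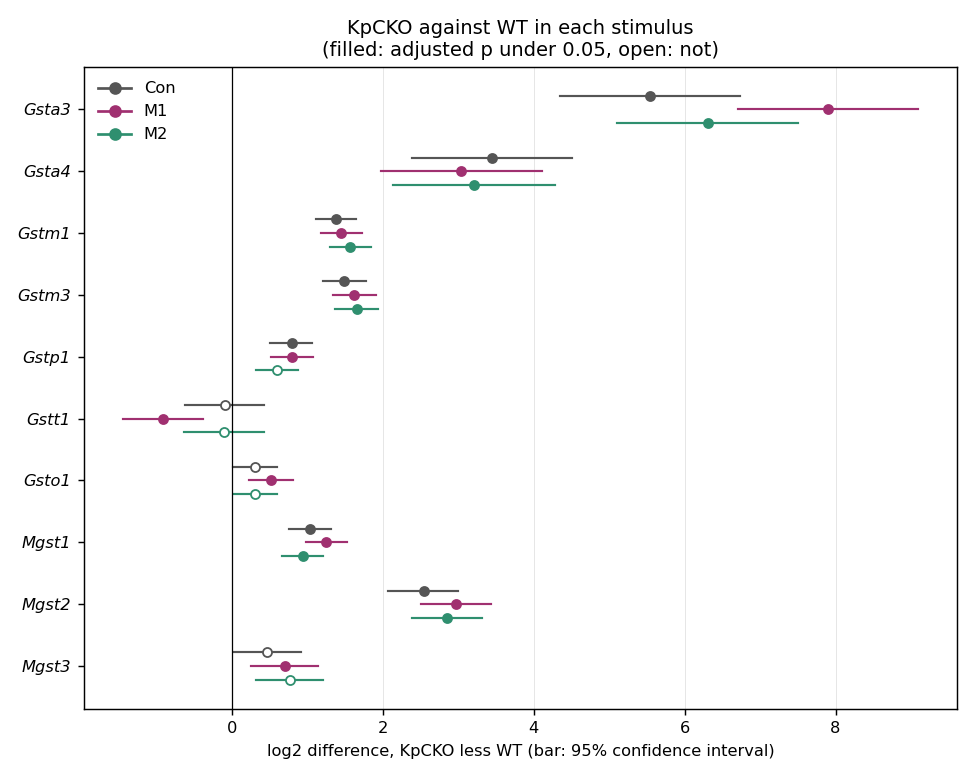
Log2 difference of KpCKO less WT (x axis) for each member (y axis) in Con, M1 and M2, with bars for the 95% confidence interval and filled points where the limma adjusted p was under 0.05. *Gsta3* lies between 5.54 and 7.90, *Gsta4* and *Mgst2* between 2.54 and 3.44, and *Gstt1* at −0.09, −0.92 and −0.10.

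Stimuli were compared as M1 and M2 against Con within each genotype. All 4 arrays of a stimulus shared a slide, so stimulus and slide cannot be told apart. In WT, 1 member, *Gstt1*, was higher in M1 than in Con, against 34.5% of 22356 genes. Lower in WT M1 were 5, *Gsta3*, *Gstp1*, *Gsto1*, *Mgst2* and *Mgst3*, against 28.7%. In KpCKO, 2 members, *Gstt1* and *Mgst1*, were higher in M1 and 4, *Gstp1*, *Gsto1*, *Mgst2* and *Mgst3*, were lower, against 24.8% and 25.4% of 22362 genes. The members' median was −0.45 in WT and −0.31 in KpCKO, and that of all genes was 0.126 and 0.029. With quantile normalization the median of all genes in WT was −0.079, and 1 member was higher and 8 lower in WT, against 29.3% and 35.5% of genes. Without the culture as a block, 6 members passed in WT, against 52.9% of genes in either direction, and 2 in KpCKO, *Gstt1* and *Gsto1*, against 39% of genes.

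*Mgst2* had the steepest M1 fall common to both genotypes, by 2.04 ± 0.20 in WT (4.10-fold, limma adjusted p = 0.000138) and by 1.61 ± 0.20 in KpCKO (3.05-fold, 0.000605). The KpCKO M1 arrays, at 1.33 and 2.27, were still above the WT Con array of the same culture. *Gsto1* fell by 1.04 ± 0.12 in WT (2.06-fold, 0.000339) and by 0.81 ± 0.12 in KpCKO (1.76-fold, 0.00154), with no overlap between M1 and Con. *Mgst3* fell by 0.77 ± 0.19 in WT (1.71-fold, 0.00975) and by 0.55 ± 0.19 in KpCKO (1.46-fold, 0.0457), and leaving out any array of the KpCKO comparison ended the latter call. *Gstp1* fell by 0.44 ± 0.12 in WT (1.35-fold, 0.0146) and by 0.43 ± 0.12 in KpCKO (1.35-fold, 0.0199). The *Gstp1* call was lost without WT Con or WT M1 of culture 2, and in KpCKO without either Con array or M1 culture 2.

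*Gstt1* rose in M1, by 2.01 ± 0.22 in WT (4.03-fold, limma adjusted p = 0.000249) and by 1.18 ± 0.22 in KpCKO (2.27-fold, 0.00406). All 4 M1 arrays lay above all 4 Con arrays. With normexp the rise in KpCKO was 0.59 and did not pass (adjusted p = 0.221). *Gsta3* fell in WT by 2.44 ± 0.50 (5.43-fold, limma adjusted p = 0.00464), or by 1.47 on the dimmer probe (adjusted p = 0.000147), and by 1.47 without WT M1 culture 2 and 3.41 without WT M1 culture 1. In KpCKO its difference was −0.09 (95% confidence interval −1.28 to 1.10, adjusted p = 0.9). *Gstm1* and *Gstm3* stood at −0.21 ± 0.11 and −0.32 ± 0.12 in WT (adjusted p = 0.144 and 0.0511), and at −0.14 and −0.19 in KpCKO (0.347 and 0.239). Both moved with the scaling, to −1.03 and −0.99 in WT and −0.67 and −0.73 in KpCKO with quantile normalization, each past the test. *Mgst1* rose by 0.41 ± 0.12 in KpCKO (1.33-fold, adjusted p = 0.0233) and stood at 0.19 in WT (0.201), but leaving out any of the 4 arrays ended the KpCKO call, and with quantile normalization it was at −0.16 in KpCKO (0.222) and at −0.53 in WT (0.00312), so that its direction depended on the scaling.

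In M2, *Gstm1* and *Mgst2* fell in WT, 2 of 10 against 8.2% of 22366 genes. *Mgst2* fell by 0.97 ± 0.20 (1.96-fold, limma adjusted p = 0.0193) and *Gstm1* by 0.47 ± 0.11 (1.38-fold, 0.0342). Neither call was kept without the culture as a block or on leaving out any array of the comparison. In KpCKO no member passed limma's test, against 10.2% of 22366 genes in either direction, though 2 had an unadjusted p under 0.05, and the methods' t-test gave 0 at its unadjusted threshold. *Gsta3* was lower in M2 in both genotypes, by 1.51 ± 0.50 in WT (adjusted p = 0.0863) and by 0.75 ± 0.50 in KpCKO (0.391), which did not pass, while its dimmer probe gave −1.50 and −0.79 and did (0.0017 and 0.0213).

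**Figure D4:**
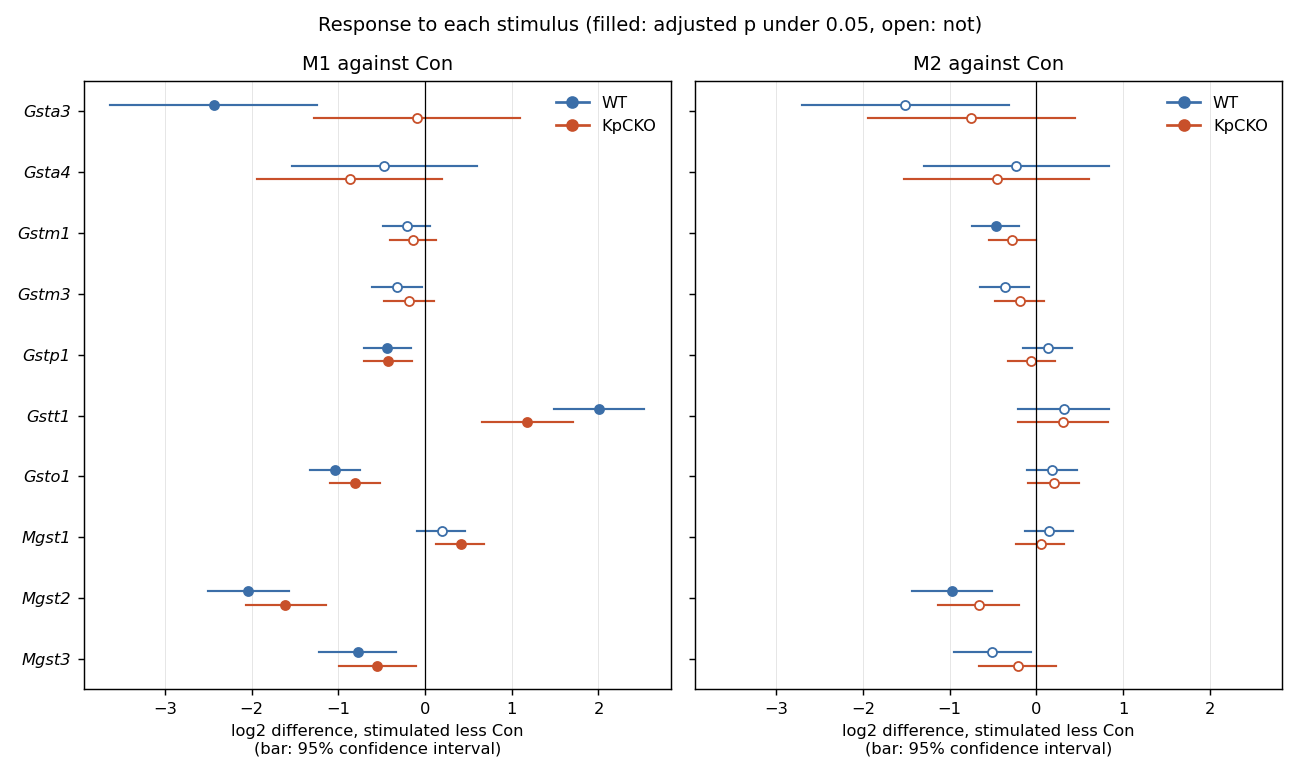
Log2 difference of M1 (left) and M2 (right) less Con (x axis) for each member (y axis), in WT (blue) and KpCKO (orange), with bars for the 95% confidence interval and filled points where the limma adjusted p was under 0.05. *Gstt1* is at 2.01 and 1.18 in M1 and *Mgst2* at −2.04 and −1.61, and in M2 all members lie between −1.51 and 0.32.

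Whether the response to a stimulus differed between the genotypes was tested directly, as the response in KpCKO less that in WT. No member passed limma's test for M1, against 0.0716% of 22354 genes, and 2 had an unadjusted p under 0.05. For M2 none passed, against 0.00894% of 22365 genes, and 0 had an unadjusted p under 0.05. For *Gsta3* the M1 responses differed by 2.35 ± 0.71 (95% confidence interval 0.67 to 4.04, adjusted p = 0.208), from 1.18 in culture 1 and 3.52 in culture 2. It was 1.48 on the dimmer probe (adjusted p = 0.0718), 3.33 without WT M1 culture 1, where it passed (0.00496), and 1.38 without WT M1 culture 2 (0.181). For *Gstt1* the responses differed by −0.83 ± 0.31 (95% confidence interval −1.57 to −0.08, adjusted p = 0.272), with both cultures below 0. The other 8 members lay between −0.40 and 0.43 for M1.

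Across the 12 arrays the members' levels followed several patterns, described by Pearson's r over arrays that share groups, slides and cultures. *Gsta3*, *Gsta4*, *Gstm1* and *Gstm3* correlated with each other at 0.92 to 0.99. *Mgst2* and *Mgst3* correlated at 0.94, and *Gstp1* with *Mgst2* at 0.93. *Gstt1* ran against *Gsto1*, at −0.90, and was below 0 with each of the other members. Of 12111 genes measured over background on each of the 12 arrays, those most like *Gsta3* were *Taldo1* (0.986), a pentose phosphate enzyme, *Ptgr1* (0.983), a prostaglandin reductase, and *Cd5l* (0.981), a secreted macrophage protein. *Cd5l* was also among the nearest to *Gstm1* (0.98) and *Gstm3* (0.991), whose nearest was each other (0.995), with *Spp1* (0.979), the gene of osteopontin, and *Calr3* (0.985), a calreticulin, as the third. *Gstp1* was most like *Slc22a18* (0.983), *Cd81* and *Mapre3* (0.967 each). *Gsto1* was most like *G6pc3* (0.99), a glucose 6-phosphatase subunit, *Dele1* and *Mettl7a1* (0.987 each), and *Arf4* and *Dxo* (0.986 each) were among the nearest to *Gstt1*. *Mgst1* was most like *Hvcn1* (0.96), *Tctn1* (0.957) and *Calr3* (0.953). *Mgst2* was most like *Mmp8* (0.969), a collagenase, *Mapre3* (0.962) and *Ogt* (0.959), and *Mgst3* was most like *Mmp8* (0.961), *Mgst2* (0.943) and *Stmn1* (0.939). *Gsta4* was not ranked, since it was not well above background on every array.

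The other glutathione transferases gave the classes more members. Calls of single genes outside the 10 members, here and below, were not checked under the alternatives. Of 19 on the list, 15 had a probe and 13 could be tested. In the order Con, M1, M2, 3, 5 and 3 were higher in KpCKO, against 1.39%, 7.43% and 1.28% of all genes. Those lower were 0, 2 and 0, against 185 of 22367, 1919 of 22354 and 144 of 22365 genes. The 13 had median differences of 0.07, 0.14 and 0.06 on the log2 scale. *Gsta1*, of the alpha class, was at −5.70 and −4.99 in WT Con and at −0.36 and −0.57 in KpCKO Con. It was 29.4-fold, 30.7-fold and 24.4-fold higher in KpCKO in Con, M1 and M2 (limma adjusted p = 0.000371, 0.00034 and 0.000722). *Gsta2* was not well above background on any WT array but was on all KpCKO arrays, at least 5.25-fold, 5.14-fold and 3.60-fold higher in Con, M1 and M2 (limma adjusted p = 0.00178, 0.000706 and 0.00324). It passed the filter on dim probes only through KpCKO, where it was high, and among the 11 genes measured above background in WT the counts were 2, 4 and 2 higher. *Gsta1* and *Gsta2* are near-identical copies, and whether their probes tell them apart was not tested.

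Of the other mu genes, *Gstm2* was higher in KpCKO in all 3 stimuli, 2.31-fold, 2.55-fold and 2.19-fold (limma adjusted p = 0.0295, 0.00794 and 0.038). *Gstm4* was higher in M1, by 0.58 ± 0.12 (1.49-fold, 0.0256), and was at 0.14 in Con and 0.06 in M2 without passing. *Gstm5* stood at 0.09, 0.14 and 0.23, none past the test, and *Gstm6*, which was well above background on both arrays only in KpCKO Con, did not pass either. *Gstm7* and *Gstp3* were too dim to be tested.

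The theta genes *Gstt3* and *Gstt4* were lower in KpCKO in M1, as was *Gstt1*. *Gstt4* was at −2.33 and −1.53 in WT M1 and at −4.39 and −3.24 in KpCKO M1, a difference of −1.89 ± 0.22 (3.70-fold lower, limma adjusted p = 0.00414), and at −0.52 and 0.12 in Con and M2 without passing. It rose in M1 in both genotypes, 13.4-fold in WT (1.9e-05) and 5.20-fold in KpCKO (0.000187), where 1 of the 2 Con arrays was well above background. *Gstt3* was lower by −0.74 ± 0.17 in M1 (1.67-fold, 0.0341), and fell in M1 in both genotypes, by 0.71 in WT and 1.29 in KpCKO. *Gstt2* was at −0.38, −0.52 and −0.36 in KpCKO against WT without passing. *Gstz1*, the zeta enzyme of tyrosine breakdown, was higher in KpCKO in M1, by 0.56 ± 0.10 (1.47-fold, 0.0177), and at 0.21 and 0.01 in Con and M2. *Gsto2* (−0.04, 0.51 and −0.01), *Gstcd* (−0.10, −0.60 and −0.13) and *Hpgds*, the sigma class prostaglandin D synthase (−0.63, −0.45 and −0.49), did not pass in Con, M1 or M2. *Hpgds* fell in M1 11.1-fold in WT and 9.82-fold in KpCKO (0.000324 and 0.000625).

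**Figure D5:**
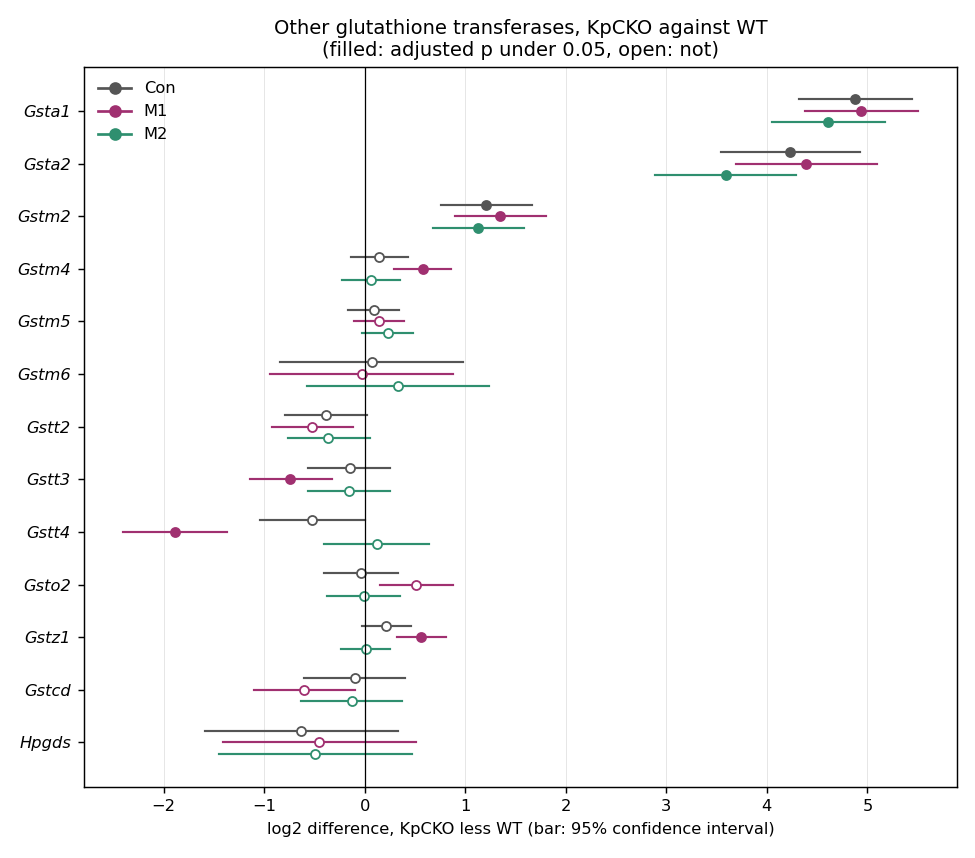
Log2 difference of KpCKO less WT (x axis) for the 13 other glutathione transferases that could be tested (y axis) in Con, M1 and M2, with bars for the 95% confidence interval and filled points where the limma adjusted p was under 0.05. *Gsta1*, *Gsta2* and *Gstm2* are higher in all 3 stimuli, and *Gstt3* and *Gstt4* are lower in M1. The WT arrays of *Gsta2* were not well above background, nor was *Gstm6* on any WT or KpCKO M2 array, so their plotted values are not exact.

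Genes that make, recycle, use or export glutathione were followed as a further list, of which 33 of 34 could be tested. In KpCKO 8, 15 and 4 were higher in Con, M1 and M2, against 1.39%, 7.43% and 1.28% of all genes. Those lower were 0, 1 and 0, against 185 of 22367, 1919 of 22354 and 144 of 22365 genes. The medians of the list were 0.19, 0.45 and 0.27, and those of all genes 0.002, −0.087 and 0.019. The subunits of glutamate-cysteine ligase, which starts glutathione synthesis, were higher. *Gclm* was 3.91-fold, 3.66-fold and 3.45-fold higher in Con, M1 and M2 (limma adjusted p = 0.00419, 0.00204 and 0.00604), and *Gclc* 2.63-fold and 2.01-fold in Con and M1 (0.0258 and 0.0254), with 0.78 ± 0.21 in M2 (0.157). *Slc7a11*, which imports cystine, was at −3.23 and −3.18 in WT Con and at 0.61 and −0.68 in KpCKO Con, 9.01-fold higher (0.00657). It was 2.47-fold higher in M1 (0.0426), where WT itself had risen 41.4-fold over Con, and 7.12-fold higher in M2 (0.0103). *Gsr*, glutathione reductase, was 2.62-fold, 2.01-fold and 3.17-fold higher (0.0147, 0.0167 and 0.00823). *Abcc1*, which exports glutathione conjugates, was 1.68-fold and 2.05-fold higher in Con and M1 (0.0311 and 0.00412), with 0.51 ± 0.12 in M2 (0.107). *Ggt1*, which splits extracellular glutathione, was not well above background in any group.

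Of the other members of the microsomal family, *Alox5ap*, the activating protein of 5-lipoxygenase, was higher in KpCKO in M1, by 0.88 ± 0.12 (1.84-fold, limma adjusted p = 0.00809), with 0.39 in Con (0.215) and 0.59 in M2 (0.0807). *Ltc4s*, leukotriene C4 synthase, was at 0.12, 0.44 and −0.36, and *Ptges*, the inducible prostaglandin E synthase, at 0.37, −0.11 and 0.40, none past the test. In M1, *Ptges* rose 18.2-fold in WT and 12.9-fold in KpCKO (4.83e-06 and 1.09e-05), while *Alox5ap* and *Ltc4s* fell in both genotypes, as did *Mgst2* and *Mgst3*. In M2, *Ltc4s* rose 2.59-fold in WT (0.0197) while *Mgst2* fell.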

How the data were processed

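Total RNA of 12 BMDM samples, in 6 groups of 2 cultures, was read on Agilent arrays in 1 colour, Cy3. The authors scanned them, used Agilent's Feature Extraction software (version 10.7.3.1) and deposited background-subtracted intensities of 43379 spots an array, unscaled between arrays, with flags for outlier, saturated and well-above-background spots. They also deposited a matrix of log2 values, which set against the intensities are the same values less each array's 75th percentile and centred per probe; it served as an alternative.

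Outlier spots were left out, spots of a probe were averaged, and log2 intensities were set relative to the array's 75th percentile. Probes were named through RefSeq by accession (18221 symbols for 26695 probes). The probe with the highest mean over the 12 arrays stood for a gene, and 22367 genes were kept, each well above background in 1 group or more on both of its arrays. limma 3.58.1 (R 4.3.3) fitted 6 groups and the culture to all arrays (5 residual and 1.92 prior degrees of freedom), with Benjamini-Hochberg adjustment over all genes and a threshold of 0.05, and was tested on simulated data. A gene not well above background in a group has a lower bound for its fold, taken on each array against its own signal or, if higher, the dimmest probe that was well above background. The number of arrays limits the precision, as do signal close to background for dim genes and the choice of probe. An array gives no read depth.

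The pairing by culture comes from the series' design text. Deviations from the group mean correlated between groups of the same culture at 0.162 to 0.597 (median 0.342) over 15 pairs of groups and 22084 genes. These pairs include arrays of the same mouse, and each culture was of 1 sex. The correlation therefore cannot separate culture from mouse or sex. Each mouse lay at the same slide position on all slides, so position and mouse cannot be told apart.

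The members and gene lists were chosen with earlier results of these data known. Named genes are the members, *Keap1*, *Nqo1*, the 3 genes most like each member (1 of them is not reported here), the other glutathione transferases above background in a group, and *Gclc*, *Gclm*, *Slc7a11*, *Gsr*, *Abcc1*, *Ggt1*, *Ptges*, *Alox5ap* and *Ltc4s*. *Gstm7* and *Gstp3* fall outside this rule and are named as too dim, and *Lyz2*, *Cxcl12* and *Dcn* are named as markers. Alternatives were quantile normalization, normexp on the median intensities with an offset of 50, the authors' matrix, no filter, the mean of a gene's probes, no culture block, mouse as a random block, the methods' t-test, each array left out in turn and, chosen after seeing the data, the dimmer probe of a gene. The methods name the t-test for data of 3 mice unless stated otherwise. The paper chose its array genes by a fold-change rule met in both cultures, which was not applied here. Plots were drawn with matplotlib 3.10.9. The array design uses an older genome build than RefSeq's table, so array probes have no coordinates here.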

Additional observations from a re-analysis of the deposited data

How the results depend on the processing

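Of 969 values of the members under the alternatives, 793 kept their direction and their side of the threshold, 140 lost the call, 15 gained one and 21 changed sign, of which 1 was a called result, *Mgst1* in M1 against Con in KpCKO. Only 37 of the 72 results behind these values were called, and uncalled results that stayed uncalled are counted in the 793. The 793 are therefore not a measure of how firm the calls were. The authors' matrix holds the same values up to centring, so its agreement was given. The causes were not tested.

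With quantile normalization *Mgst1* was at −0.53 (M1, WT), −0.16 (M1, KpCKO) and −0.09 (M2, KpCKO). With normexp *Gstt1* was at 0.03 in KpCKO against WT in Con, *Gsta4* at 0.47 and 0.62 in M1 and M2 against Con in WT, and *Mgst1* at 0 in M2 in WT. With the dimmer probe *Gstp1* was at −0.06 (M2, WT), *Gsta3* at 0.01 (M1, KpCKO) and *Mgst1* at −0.17 (M2, KpCKO), which was −0.06 with the mean of probes. With each array left out in turn, *Gstt1* ranged from −0.29 to 0.11 by genotype in Con and from −0.29 to 0.09 in M2, *Gsta4* from −0.68 to 0.23 (M2, WT), *Gsta3* from −0.26 to 0.09 (M1, KpCKO), and *Gstp1* from −0.14 to 0.03 and *Mgst1* from −0.08 to 0.18 (M2, KpCKO).

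Counts of all genes called moved further. With normexp they were 170 (Con), 915 (M1) and 225 (M2) by genotype, 9298 and 1674 in M1 and M2 against Con in WT, 6951 and 690 in KpCKO, and 0 for both differences in response. Without the filter they were 259 and 238 (Con and M2 by genotype), 2365 and 1232 (M2 in WT and KpCKO), and 0 and 1 (M1 and M2 response). Without the culture block they were 191, 1191 and 193 by genotype, and 1714 and 895 in M2 in WT and KpCKO. By the methods' t-test they were 1618 and 1740 unadjusted in Con and M2 by genotype and 6528 in M1 in KpCKO, and after Benjamini-Hochberg 0 in each genotype comparison, 2934 and 2 in M1 and M2 in WT, and 0 and 0 in KpCKO. The M1 response gave 16 genes, but 2 with quantile normalization, 25 with the authors' matrix, 1 with the mean of probes and 1 with mouse as a block. With quantile normalization the KpCKO against WT split in M1 was 2030 higher and 1352 lower, against 1660 and 1919, and that of M1 against Con in WT was 6545 and 7937, against 7720 and 6409, or 11917 and 6110 without the filter.

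Members called fell without the culture block to 4 (Con by genotype), 0 (M2, WT) and 2 (M1, KpCKO), with normexp to 1 (M2, WT) and 2 (M1, KpCKO), and without the filter to 1 (M2, WT). The methods' t-test called 3 (M1, WT) and 3 (M1, KpCKO) unadjusted, and after Benjamini-Hochberg 0 in each genotype comparison, 1 in M1 in WT, 0 in M2 in WT and 0 in M1 in KpCKO. The dimmer probe gave 1 (M2, KpCKO).

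With each array left out in turn, genes called ranged from 96 to 170 in KpCKO against WT in Con, from 837 (without KpCKO M1 culture 1) to 3626 in M1 and from 67 to 140 in M2. They ranged from 10757 to 13478 and from 928 to 1167 in M1 and M2 in WT, from 8063 to 9815 and from 489 to 817 in KpCKO, from 0 to 537 (without WT M1 culture 1) for the M1 response and from 0 to 2 for the M2 response. Members called ranged from 4 to 4, 5 to 9 and 4 to 5 by genotype in Con, M1 and M2, 4 to 6 and 0 to 0 in M1 and M2 in WT, 3 to 4 and 0 to 0 in KpCKO, and 0 to 1 and 0 to 0 for the responses. A group with 1 array left is assumed to vary like the others. With 2 arrays a group, small differences could not be resolved, and *Gsta4* in WT was limited by signal close to background.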
